A study of Drosophila melanogaster with 7 samples.

Results

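The segment polarity genes *en*, *inv*, *wg*, *hh*, *ptc*, *gsb* and *mid* were followed in early *Drosophila melanogaster* embryos with reduced heterochromatin protein HP1. The 7 genes were chosen by name for their place in the segmentation hierarchy out of 17699 genes in the deposited count table, and 5 of them were among the 8008 genes that passed the filter on low counts. Total RNA was sequenced from hand-staged embryos at stage 5, the cellular blastoderm during which zygotic genome activation (ZGA) takes place. HP1-KD embryos (3 libraries) came from mothers that expressed an interfering hairpin against *Su(var)2-5*, the gene of HP1, in the female germ line (TRiP line, Bloomington stock 33400, crossed to a Gal4 driver). Control embryos (4 libraries) came from Bloomington stock 36303 and are labelled wild type. The knockdown is partial and maternal, since embryos with complete depletion stop before ZGA, so that only embryos which reached this stage were sampled. HP1-KD samples carry a wild-type tissue label too, so their group was read from title and genotype. The study notes an inversion on chromosome 2L, the arm of *wg* and *mid*, in HP1-KD embryos, and its effect on these genes was not tested. How many embryos were in a library, and whether libraries of a group came from separate collections, is not given in the sources used here, so the p-values measure the spread between these libraries, which may be technical.

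Segment polarity genes act last in the cascade that divides the embryo into segments, after the maternal, gap and pair-rule genes. Their products form stripes on either side of each parasegment boundary, where cells that express the homeodomain proteins Engrailed and Invected secrete Hedgehog, and the neighbouring row of cells secretes Wingless. Hedgehog binds Patched and thereby keeps *wg* active in the neighbouring cells, and Wingless in turn keeps *en* active. At stage 5 this circuit is only starting: the pair-rule genes still lay down the pattern, and most segment polarity stripes appear towards the end of cellularization.

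The libraries held 8678092 to 16983585.5 estimated counts in HP1-KD embryos and 10927292.5 to 14374654.5 in control embryos. Ribosomal RNA genes took 37.3% to 80.7% of the counts in HP1-KD libraries and 15.3% to 47.2% in control libraries, which left 3272009.5 to 5443432 other counts in HP1-KD and 7324415.5 to 11775952 in control. With these genes left out of the fit, the log2 fold changes of *en*, *inv*, *wg*, *ptc* and *mid* were -1.21 to -0.69. Levels are given as CPM, counts scaled to the size of each library with edgeR's TMM factors. On that scale 3 counts equal 0.276 to 0.463 CPM in HP1-KD libraries and 0.129 to 0.209 CPM in control libraries. A count of 0 in 1 library allows a level of up to about 3 counts, counting error only. Levels of 3 counts or fewer were therefore taken as poorly known. *Su(var)2-5* itself had 81.5, 99.0 and 82.4 CPM in HP1-KD replicates 1 to 3, against 189, 217, 275 and 230 CPM in control replicates 1 to 4. It fell by 1.38 on the log2 scale (SE 0.15, adjusted p = 0.00231), and the libraries followed their labels.

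Transcripts of *en*, *inv*, *hh*, *gsb* and *mid* were scarce in both conditions, while *wg* had 29 to 635 and *ptc* 207.5 to 3720 estimated counts per library. None of the 5 tested genes passed the threshold of 0.05 on the adjusted p (edgeR's quasi-likelihood test, Benjamini-Hochberg adjustment over 8008 genes). In the same fit 688 of 8008 genes (8.59%) were called, 392 of them (4.90%) lower in HP1-KD. At an unadjusted p under 0.05 there was 1 of the 5, *inv*, against 2307 of all 8008 genes. DESeq2 and limma-voom also called 0 of the 5. The log2 fold change of HP1-KD over control was below 0 for 5 of 5, with a median of -1.17, beside a median of -0.03 over all tested genes. Without control replicate 3 the median of the 5 was -0.60. *inv* was the 1 gene of the 7 whose groups did not overlap, and all HP1-KD libraries lay below all control libraries for 1210 of the 8008 tested genes (15.1%). In these whole-embryo libraries, fewer cells that express a gene and less RNA per cell cannot be told apart.

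**Figure D1:**
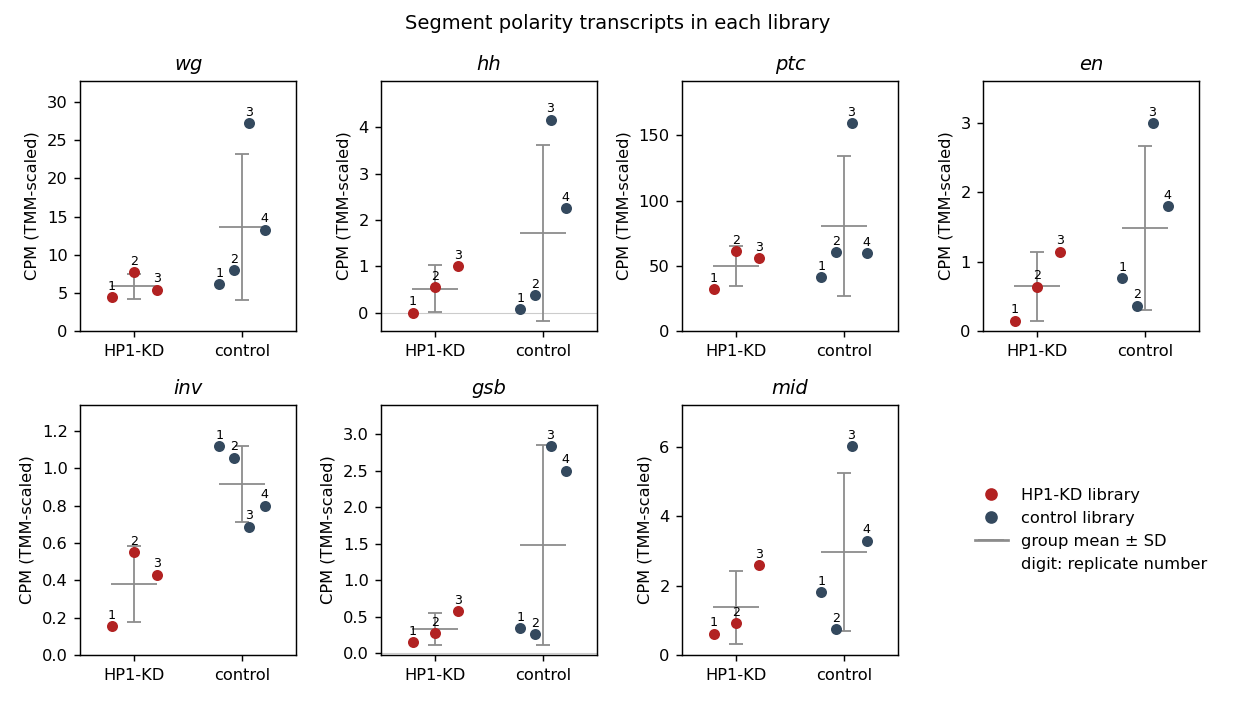
Level of each segment polarity gene in CPM (vertical axes, TMM-scaled, each panel with its own scale) in 3 HP1-KD and 4 control libraries, with digits for replicate numbers and grey bars for the group mean ± SD. Control replicate 3 is the highest point in 6 of 7 panels and HP1-KD replicate 1 the lowest in 7 of 7, while *inv* is the panel in which HP1-KD and control points do not overlap.

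*wg* (FBgn0284084) encodes the secreted Wnt ligand Wingless with 2919 nt of exons at chr2L:7307159-7316265 (plus strand, dm6, as all positions here). It had 4.47, 7.72 and 5.45 CPM in HP1-KD replicates 1 to 3, against 6.14, 8.03, 27.3 and 13.3 CPM in control replicates 1 to 4, from 29 to 84.5 estimated counts in HP1-KD and 87.5 to 635 in control. The 3 HP1-KD libraries lay close to control replicates 1 and 2, and control replicates 3 and 4 lay above both. The means were 5.88 ± 1.66 CPM (SD, n = 3) in HP1-KD and 13.7 ± 9.55 CPM (SD, n = 4) in control. The log2 fold change was -1.21 (SE 0.53, adjusted p = 0.177), with a 95% interval of -2.43 to 0.01. Without control replicate 3 it was -0.63 (adjusted p = 0.221).

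*hh* (FBgn0004644) encodes Hedgehog, the second ligand of the circuit, with its gene at chr3R:23128169-23141906 (minus strand). It had 0, 6 and 7 estimated counts in HP1-KD replicates 1 to 3, against 1, 7, 97 and 45 in control replicates 1 to 4. On the CPM scale these were 0, 0.55 and 1.00 in HP1-KD, and 0.07, 0.37, 4.16 and 2.25 in control. HP1-KD replicate 1 and control replicate 1 were thus both under 3 counts, and the 0 in HP1-KD replicate 1 allows a level of up to 0.463 CPM. *hh* did not pass the count filter. In a fit without the filter (13177 genes) its log2 fold change was -1.72 (SE 1.15, adjusted p = 0.411), with a 95% interval of -4.26 to 0.82.

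*ptc* (FBgn0003892) encodes Patched, the receptor of Hedgehog, which holds the membrane protein Smoothened inactive until the ligand binds, and is itself a target of the pathway. Its span at chr2R:8649649-8665223 (plus strand) holds a non-coding RNA gene on the opposite strand whose exons do not overlap its own. *ptc* was the most abundant of the 7 genes, with 32.1, 61.3 and 56.2 CPM in HP1-KD replicates 1 to 3, against 41.6, 60.3, 160 and 59.8 CPM in control replicates 1 to 4. Control replicates 1, 2 and 4 lay within the range of the HP1-KD libraries, and control replicate 3 stood far above all others. The means were 49.9 ± 15.6 CPM (SD, n = 3) in HP1-KD and 80.4 ± 53.6 CPM (SD, n = 4) in control. The log2 fold change was -0.69 (SE 0.47, adjusted p = 0.352) with a 95% interval of -1.77 to 0.40, and -0.11 (adjusted p = 0.768) without control replicate 3.

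*en* (FBgn0000577; chr2R:11524006-11528210, minus strand) encodes the homeodomain transcription factor Engrailed, which activates *hh* in the cells that express it. It had 1, 7 and 8 estimated counts in HP1-KD replicates 1 to 3, against 11, 7, 70.5 and 36 in control replicates 1 to 4, which is 0.15, 0.64 and 1.15 CPM in HP1-KD, against 0.77, 0.37, 3.01 and 1.80 CPM in control. The HP1-KD libraries spanned the range of control replicates 1 and 2 and lay below control replicates 3 and 4. The log2 fold change was -1.19 (SE 0.83, adjusted p = 0.363), with a 95% interval of -3.12 to 0.73, and it was -0.60 (adjusted p = 0.599) without control replicate 3.

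*inv* (FBgn0001269), the paralogue of *en*, encodes the homeodomain factor Invected and lies beside it at chr2R:11474465-11509695 (plus strand), with 14310 bp between them. It had 1, 6.5 and 3 estimated counts in HP1-KD replicates 1 to 3, against 16.5, 20.5, 15.5 and 16 in control replicates 1 to 4. In CPM these were 0.15, 0.55 and 0.43 in HP1-KD, and 1.12, 1.06, 0.69 and 0.80 in control. Every HP1-KD library was below every control library, and the highest control value was only 1.63 times the lowest. The means were 0.379 ± 0.204 CPM (SD, n = 3) in HP1-KD and 0.915 ± 0.205 CPM (SD, n = 4) in control. The log2 fold change was -1.17 (SE 0.46, unadjusted p = 0.0349, adjusted p = 0.143), so that *inv* did not pass the threshold either. It was -1.27 without control replicate 3 (adjusted p = 0.0962). HP1-KD replicates 1 and 3 had 3 counts or fewer.

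*gsb* (FBgn0001148; chr2R:25061964-25064643, plus strand) encodes Gooseberry, a paired-domain transcription factor that maintains *wg* in the cells which secrete it. It had 1, 3 and 4 estimated counts in HP1-KD replicates 1 to 3, against 5, 5, 65.5 and 50.5 in control replicates 1 to 4, which is 0.15, 0.28 and 0.57 CPM in HP1-KD, against 0.35, 0.26, 2.83 and 2.50 CPM in control. Control replicates 3 and 4 stood apart from the other 5 libraries, which included both other controls. *gsb* did not pass the count filter, and in the fit without it the log2 fold change was -2.17 (SE 0.97, adjusted p = 0.238), with a 95% interval of -4.31 to -0.03.

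*mid* (FBgn0261963; chr2L:5461639-5467610, plus strand) encodes the T-box transcription factor Midline. It had 0.62, 0.92 and 2.58 CPM in HP1-KD replicates 1 to 3, against 1.82, 0.74, 6.01 and 3.30 CPM in control replicates 1 to 4, from 4, 10 and 18.5 estimated counts in HP1-KD and 26.5, 14, 139.5 and 66 in control. HP1-KD replicate 3 lay above control replicates 1 and 2. The log2 fold change was -1.13 (SE 0.77, adjusted p = 0.352) with a 95% interval of -2.92 to 0.65, and -0.55 (adjusted p = 0.592) without control replicate 3.

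**Figure D2:**
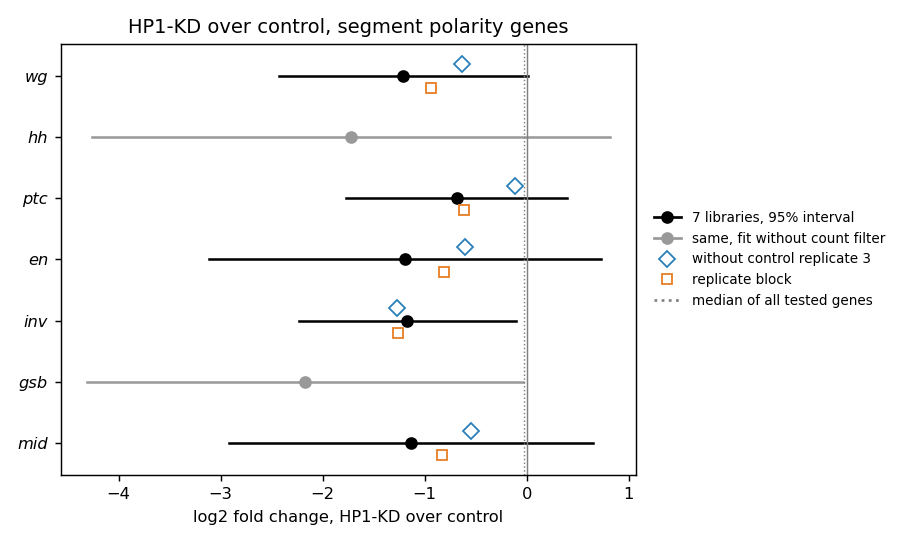
Log2 fold change of HP1-KD over control (horizontal axis) for each segment polarity gene, with 95% intervals from edgeR, grey where the gene was fitted without the count filter, open diamonds without control replicate 3 and open squares with the replicate number as a block. All 7 estimates lie below 0, from -0.69 for *ptc* to -2.17 for *gsb*, and the diamond of *ptc* lies at -0.11 while that of *inv* stays at -1.27.

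The 7 genes, with the exception of *inv*, varied together across libraries, also within the control group. Control replicate 3 held the highest level of the 7 libraries for 6 of the 7 genes, and control replicate 4 the next highest for 5. HP1-KD replicate 1 was lowest for 7 of 7, although 4 of the 7 had 3 counts or fewer there. For comparison, control replicate 3 was the highest of the 4 control libraries for 39.3% of all tested genes. Between the highest and the lowest control library, *en* and *mid* each differed by 8.13-fold, *wg* by 4.44-fold and *ptc* by 3.84-fold, while the median tested gene differed by 1.66-fold and 18.3% of tested genes by more than 3-fold. The summed level of the 7 genes, most of it *ptc*, was 37.6, 71.9 and 67.4 CPM in HP1-KD replicates 1 to 3, against 51.9, 71.2, 204 and 83.7 CPM in control replicates 1 to 4. HP1-KD replicate 3 thus lay between control replicates 1 and 2, HP1-KD replicate 2 just above both, and all HP1-KD libraries below control replicates 3 and 4.

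Over the 7 libraries, log2(CPM + 0.5) of the 15 pairs of genes that leave out *inv* correlated with a Pearson r of 0.74 to 0.98 (Spearman rho 0.46 to 1). The 6 pairs with *inv* gave an r of 0.16 to 0.36 (rho 0.04 to 0.50). The points of each pair share their library, its depth and its scaling, and control replicates 3 and 4 carry most of the range, so the values are a description of these 7 libraries. The summed levels of *en*, *inv* and *hh* and of *wg*, *gsb* and *mid* were both lowest in HP1-KD replicate 1 and highest in control replicates 3 and 4. *en*, *inv* and *hh* summed to 0.309, 1.75 and 2.58 CPM in HP1-KD, against 1.95, 1.80, 7.86 and 4.85 CPM in control. *wg*, *gsb* and *mid* summed to 5.25, 8.91 and 8.61 CPM in HP1-KD, against 8.31, 9.04, 36.1 and 19.1 CPM in control.

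*en* and *inv* are neighbours and share regulatory DNA, so their ratio within each library was compared, which does not depend on how libraries are scaled. The log2 ratio of *en* to *inv* counts, with 0.5 added to each, was 0, 0.10 and 1.28 in HP1-KD replicates 1 to 3, against -0.56, -1.49, 2.15 and 1.15 in control replicates 1 to 4. It averaged 0.46 ± 0.71 (SD, n = 3) in HP1-KD and 0.31 ± 1.64 (SD, n = 4) in control, a difference of 0.15 that the exact two-sided permutation test did not tell from 0 (p = 0.914 over 35 splits, also 0.914 adjusted over 3 ratios, where the smallest p possible is 0.0571). The control libraries covered the widest range, since *inv* stayed between 0.69 and 1.12 CPM while *en* went between 0.37 and 3.01 CPM among the controls. The HP1-KD ratios rest on 1, 7 and 8 counts of *en* and 1, 6.5 and 3 counts of *inv*. Under alternative settings the difference kept its sign in 6 and reversed in 4. The ratios of *gsb* to its paralogue *gsb-n* and of *mid* to its paralogue *H15* differed by -2.24 (exact permutation p = 0.0571, 0.171 adjusted over 3 ratios) and -1.28 (exact permutation p = 0.171, 0.257 adjusted). *gsb-n* never had more than 1 count and *H15* never more than 1.5, so these ratios follow the counts of *gsb* and *mid* and their depth.

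**Figure D3:**
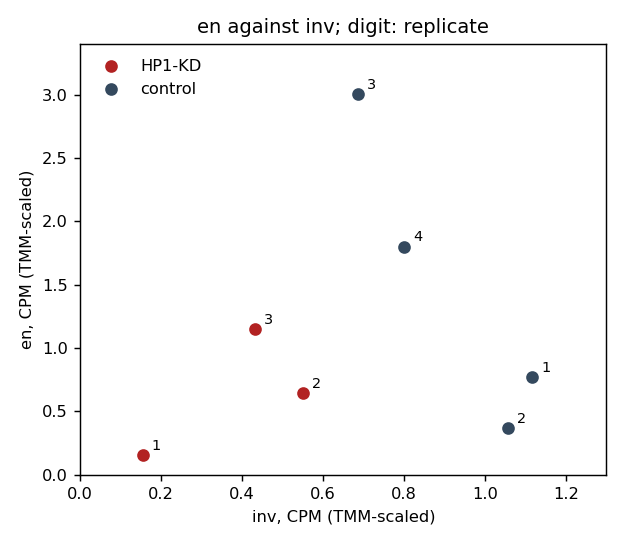
Level of *en* (vertical axis, CPM) against *inv* (horizontal axis, CPM) in each library, red for HP1-KD and dark blue for control, with replicate numbers. The HP1-KD libraries lie left of the controls, at 0.15 to 0.55 against 0.69 to 1.12 CPM of *inv*, while for *en* control replicates 1 and 2 (0.77 and 0.37 CPM) fall within the range of HP1-KD.

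Per kilobase of exon, the order of the 7 genes by mean level in control libraries was *ptc*, *wg*, *mid*, *gsb*, *hh*, *en* and *inv*. *ptc* had 9.03 ± 2.83 CPM per kb in HP1-KD (SD, n = 3) and 14.6 ± 9.71 in control (SD, n = 4), and *wg* had 2.02 ± 0.57 in HP1-KD and 4.69 ± 3.27 in control. *mid* had 0.470 CPM per kb in HP1-KD and 1.02 in control, and *gsb* had 0.203 in HP1-KD and 0.901 in control. *hh* had 0.219 CPM per kb in HP1-KD and 0.723 in control, *en* 0.232 in HP1-KD and 0.532 in control, and *inv* 0.0640 in HP1-KD and 0.155 in control. *ptc* was above *wg*, and *wg* above *mid*, in 7 of 7 libraries. *mid* was above *gsb*, and *en* above *inv*, in 6 of 7. Between them, *gsb* was above *hh* in 4 of 7 libraries and *hh* above *en* in 5 of 7, so these neighbours did not differ beyond their spread.

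Close relatives of the segment polarity genes ranged from undetected to abundant. The paralogue of *gsb*, *gsb-n*, and that of *mid*, *H15*, had 3 counts or fewer in every library. The Wnt ligand genes *Wnt4* and *Wnt6*, which flank *wg* on 2L at 29987 bp and 17448 bp, averaged 0.161 and 0.0306 CPM in HP1-KD, and 0.290 and 0.145 CPM in control, and *Wnt10* averaged 0.0613 CPM in HP1-KD and 0.0679 CPM in control. These genes failed the count filter. Of 4 tested relatives 0 were called, and their median log2 fold change was -1.06. *Ptr*, which encodes a Patched-related protein, had 144, 249 and 173 CPM in HP1-KD, against 185, 338, 707 and 348 CPM in control, with a log2 fold change of -1.06 (SE 0.42, adjusted p = 0.147). *wntD*, an early Wnt ligand gene that restrains Dorsal signalling, gave -1.05 (SE 0.57, adjusted p = 0.254) with its highest level again in control replicate 3. *Wnt2* gave -1.19 (adjusted p = 0.294) and *Wnt5* -0.20 (adjusted p = 0.358).

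The tested protein-coding genes next to the segment polarity genes gave log2 fold changes of -0.27 to 0.48. Counting only genes other than the 7 themselves, 12 neighbours were taken, 6 were tested and 0 were called, with a median log2 fold change of 0.34. *E(Pc)*, the chromatin factor gene 9194 bp from *inv*, gave 0.31 (SE 0.15, adjusted p = 0.213), and *tou*, 49274 bp from *en*, gave 0.13 (adjusted p = 0.747). *Acsl*, 589 bp from *ptc*, gave 0.48 (adjusted p = 0.353) and *CG8635* on its other side 0.45 (adjusted p = 0.107). Next to *hh*, *CG31457* at 187 bp gave 0.36 (adjusted p = 0.272) and *unk* at 7746 bp gave -0.27 (adjusted p = 0.228). *gol* beside *gsb* and *CG14020* beside *mid* failed the filter, with means of 0.598 and 0.0478 CPM in HP1-KD, and 0.282 and 0.0861 CPM in control.

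Of 37 tested genes for the release and reception of both signals 3 were called (8.11%), close to the 8.59% over all tested genes. Of 7 tested genes for the release and spread of Hedgehog, 0 were higher and 1 lower, and *shf*, a secreted factor of Hedgehog spread, failed the filter with means of 0.0613 CPM in HP1-KD and 0.0694 CPM in control. That gene was *ttv*, an exostosin that builds the heparan sulphate chains along which Hedgehog moves, with 37.8, 40.1 and 41.3 CPM in HP1-KD, against 60.6, 53.0, 54.9 and 52.5 CPM in control. It fell by 0.47 on the log2 scale (SE 0.11, adjusted p = 0.0357), and the median of its list was -0.06. The call was lost when any 1 of 6 of the 7 libraries was left out, all but control replicate 3, at log2 fold changes of -0.51 to -0.42, and with the replicate number as a block (adjusted p = 0.209). The list's co-members *sotv* and *botv*, which encode the other exostosins, gave 0.09 and 0.14.

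Of 13 genes for the reception and transduction of Hedgehog, 0 were called, with a median of -0.19. The smallest p-values belonged to *cos*, which encodes the kinesin-like scaffold of the cytoplasmic complex (-0.39, SE 0.11, adjusted p = 0.0644), and *smo*, which encodes Smoothened (-0.60, SE 0.20, adjusted p = 0.0941). For both, and for *sgg* of the same list, all HP1-KD libraries lay below all control libraries, as for 15.1% of all tested genes. *smo* had 143, 163 and 131 CPM in HP1-KD, against 170, 205, 302 and 208 CPM in control. *ci*, the transcription factor at the end of the pathway, was named after its values were seen. It had 40.4, 68.7 and 59.7 CPM in HP1-KD, against 46.1, 129, 449 and 191 CPM in control, with a log2 fold change of -1.85 (SE 0.67, adjusted p = 0.119).

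Of 17 genes for the release and transduction of Wingless, 0 were higher and 2 lower, with a median of -0.17. Over all tested genes 4.90% were called lower, with a median of -0.03. *fz*, which encodes the receptor Frizzled, had 12.5, 20.0 and 20.4 CPM in HP1-KD, against 34.1, 52.6, 41.0 and 43.2 CPM in control, and fell by 1.27 on the log2 scale (SE 0.22, adjusted p = 0.0156). *Apc2*, a scaffold of the complex that degrades the effector Armadillo, had 98.6, 96.3 and 91.3 CPM in HP1-KD, against 139, 134, 125 and 136 CPM in control, and fell by 0.49 (SE 0.09, adjusted p = 0.0205). Control replicate 3 was the highest library for neither gene, in contrast to *wg*. With the replicate number as a block, the adjusted p was 0.05003 for *fz* and 0.181 for *Apc2*, both above the threshold. Leaving out any 1 of the HP1-KD libraries or control replicate 4 also ended both calls, at log2 fold changes of -1.38 to -1.06 for *fz* and -0.49 to -0.46 for *Apc2*.

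The pair-rule genes act upstream of the segment polarity genes and had sums over 10 genes of 351 to 422 CPM in HP1-KD libraries and 433 to 733 CPM in control libraries. Of these sums *ftz-f1* alone made up 187, 174 and 164 CPM in HP1-KD, against 209, 146, 72.3 and 162 CPM in control. Its log2 fold change was 0.25 (adjusted p = 0.593), and its lowest level was in control replicate 3. Of the 10 tested genes 0 were higher and 2 lower, 9 had a log2 fold change below 0, and the median was -0.71. Over all 8008 tested genes 4.90% were called lower, 4178 had a log2 fold change below 0, and the median was -0.03. *h*, which encodes the repressor Hairy, had 26.8, 34.7 and 23.5 CPM in HP1-KD, against 47.3, 66.3, 103 and 62.1 CPM in control. It fell by 1.29 on the log2 scale (SE 0.27, adjusted p = 0.0304). *odd*, which encodes the zinc-finger repressor Odd-skipped, had 22.1, 32.5 and 21.5 CPM in HP1-KD, against 41.1, 59.7, 88.6 and 55.4 CPM in control, and fell by 1.27 (SE 0.28, adjusted p = 0.0346). Both had their highest level in control replicate 3, as 6 of the 7 segment polarity genes did. For both every HP1-KD library lay below every control library, as for *inv* and for 15.1% of all tested genes. The same held for *ftz* and *slp2* of this list, which were not called. With the replicate number as a block the adjusted p was 0.132 for *h* and 0.126 for *odd*, above the threshold. Both calls also ended without any 1 of the HP1-KD libraries and without control replicate 2 or 4, at log2 fold changes of -1.46 to -1.17 for *h* and -1.48 to -1.15 for *odd*.

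Genes that mark the progress of stage 5 also differed between libraries of 1 group. Summed over 7 maternally supplied messages, the level was 1640 to 1876 CPM in HP1-KD libraries and 474 to 1989 CPM in control libraries, with the lowest value in control replicate 3. *bcd*, the maternal anterior determinant, had 104, 100.2 and 108 CPM in HP1-KD, against 130, 61.6, 22.8 and 78.8 CPM in control. *smg*, an RNA-binding factor that clears maternal messages, had 1411, 1202 and 1288 CPM in HP1-KD, against 1393, 813, 325 and 1030 CPM in control. In the maternal sum, most of it *smg*, control replicate 3 was lowest and control replicate 1 highest. Among the controls this is the reverse of their places for the summed segment polarity genes. Single messages did not all follow this order, as *nos*, *gnu* and *png* were highest among the controls in control replicate 2. *png* was lowest in control replicate 1, at 1.47 CPM, against 1.67 CPM in control replicate 3. Of the 7 messages 0 were called, and their median was 0.50, with *png* at 0.75 (adjusted p = 0.159) and *smg* at 0.55 (adjusted p = 0.391). The part of developmental progress within stage 5 in the values of the segment polarity genes was not tested.

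Of 5 genes for early cellularization, the packaging of blastoderm nuclei into cells, 0 were called, with a median of -0.52. *slam*, needed for the growth of the cleavage furrows, had 1030, 1399 and 871 CPM in HP1-KD, against 1686, 1763, 1612 and 1636 CPM in control, with a log2 fold change of -0.61 (SE 0.18, adjusted p = 0.0763), and *Sry-alpha* gave -0.52 (SE 0.18, adjusted p = 0.107). *nullo* gave 0.32 (adjusted p = 0.663) and *bnk* -0.14 (adjusted p = 0.821). Both were lowest in control replicate 3, at 8.50 and 45.3 CPM, which the sum of the list, most of it *slam*, does not show. Of 5 genes for the onset of gastrulation 0 were called, with a median of -0.10. *twi*, the mesodermal determinant, gave -0.70 (adjusted p = 0.131) and *mist*, a receptor for the ligand Fog, gave 0.27 (adjusted p = 0.263).

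**Figure D4:**
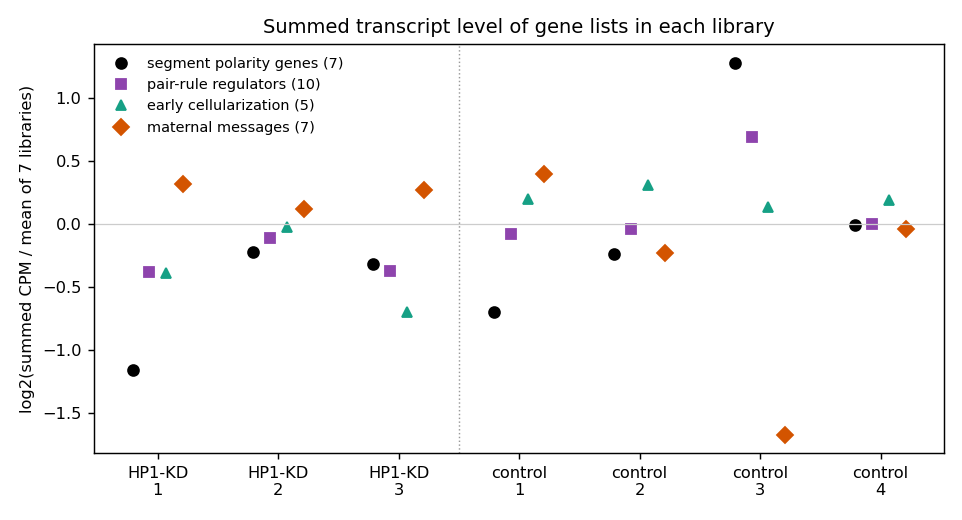
Summed CPM of 4 groups of genes in each library, as log2 of the ratio to the mean of the 7 libraries (vertical axis), for segment polarity genes, pair-rule regulators, early cellularization genes and maternal messages. In control replicate 3 the segment polarity and pair-rule sums are highest (204 and 733 CPM) and the maternal sum is lowest (474 CPM), while the 3 HP1-KD libraries lie close together for maternal messages at 1640 to 1876 CPM.

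Markers of cell types were read as a check of the embryos. Genes of differentiated muscle were near 0, with sums over 3 genes of 0.287 to 1.10 CPM in HP1-KD and 0.0698 to 0.515 CPM in control, and the neuronal gene *Syt1* had 3 counts or fewer in every library. Sums of 3 neuronal genes, most of it *elav*, were 6.17 to 15.8 CPM in HP1-KD and 8.17 to 73.9 CPM in control. Of 5 neuroectoderm markers 0 were higher and 1 lower, beside 4.90% called lower over all tested genes. The lower gene was *rho*, a protease of EGF receptor signalling, which fell by 1.19 on the log2 scale (SE 0.29, adjusted p = 0.0436, and 0.201 with the replicate block). That call ended without any 1 of the HP1-KD libraries and without control replicate 2 or 4, at log2 fold changes of -1.38 to -0.96. Summed over the 5, neuroectoderm markers had 98.7 to 158 CPM in HP1-KD and 154 to 394 CPM in control, again highest in control replicate 3. Sums of 5 mesoderm markers were 65.4 to 97.4 CPM in HP1-KD and 95.9 to 178 CPM in control, and of 5 markers of amnioserosa and dorsal ectoderm 86.2 to 139 CPM in HP1-KD and 149 to 188 CPM in control. Sums of 5 pole cell markers were 229 to 264 CPM in HP1-KD and 136 to 258 CPM in control, and of 3 haemocyte markers 46.3 to 65.3 CPM in HP1-KD and 37.1 to 79.6 CPM in control. No marker other than *rho* was called, and the part of cell composition in the values of the segment polarity genes was not tested.

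**Figure D5:**
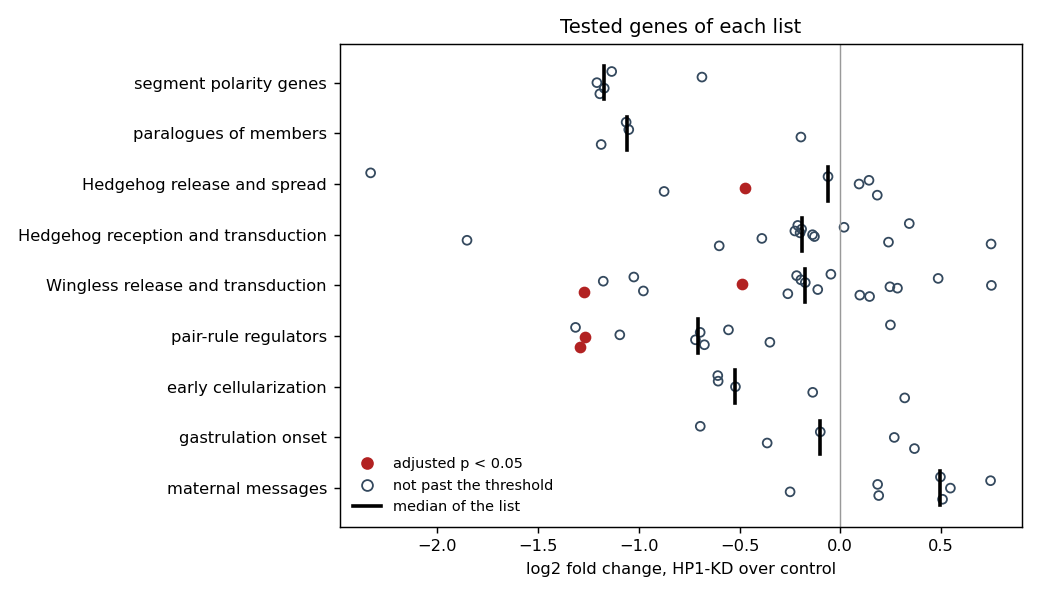
Log2 fold change of HP1-KD over control (horizontal axis) for every tested gene of 9 groups (rows), filled red where the adjusted p was under 0.05 and open otherwise, with a black bar at the median of each group. The median is -1.17 for the segment polarity genes with no filled point, -0.71 for the pair-rule regulators with 2, and 0.50 for maternal messages with none.

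The genes whose levels ran most like those of the tested segment polarity genes were taken from 6430 other tested genes with a mean of at least 50 normalized counts. Likeness was Pearson's r with the mean standardized profile of the 5 genes over the 7 libraries, given as a description. The tested segment polarity genes themselves had an r of 0.52 (*inv*) to 0.94 (*en*) with that mean, below every gene listed next. *Glut4EF* had an r of 0.995, *CG17786* 0.994, *CG6937* 0.984, *CG5196* 0.984 and *Creld* 0.982, out of a range of -0.99 to 0.995. Their log2 fold changes were -1.20, -0.57, -1.09, -0.86 and -1.18 in that order, with adjusted p-values of 0.128 to 0.268, so that 0 of the 5 were called.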

How the data were processed

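Total RNA of stage 5 embryos (3 HP1-KD and 4 control libraries, TruSeq Stranded Total RNA) was sequenced by the authors. The deposited values are estimated counts for each FlyBase gene, in steps of 0.5, which the authors did not normalize. The submitters' processing notes name STAR and dm6. The counting program and its use of strand are not given in the sources used here, so reads from overlapping antisense genes may not be separated. Exons of the 7 genes overlap no other exons. Positions and exon lengths come from Ensembl release 115 of the same assembly, which holds 17561 of the 17699 identifiers (99.22%). Sequences are not shown.

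Counts were rounded to whole numbers, filtered with filterByExpr, scaled with TMM and compared with edgeR 4.0.16 (quasi-likelihood F-test, condition only) in R 4.3.3, with Benjamini-Hochberg adjustment over all tested genes and a threshold of 0.05. The standard error is the log2 fold change divided by the square root of F. The procedure was tested on simulated data. Ratios within libraries were compared with exact permutation tests in scipy 1.17.1. Alternatives were DESeq2 1.42.0, limma-voom (limma 3.58.1), other scalings and filters, a replicate block and each library left out. No batch is named in the labels.

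The 7 genes and all lists were chosen with earlier results of these data known. Genes named beyond the 7 were their paralogues, their nearest protein-coding neighbours, *Su(var)2-5*, from each list the called genes or otherwise the 2 with the smallest p, and the 5 with the most similar profile. *ci*, *sgg*, *shf*, *sotv*, *botv*, *ftz-f1*, *ftz*, *slp2*, *nullo*, *bnk*, *bcd*, *nos*, *gnu*, *Syt1*, *elav* and *Hml* are exceptions, named after their values were seen.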

Additional observations from a re-analysis of the deposited data

Results flagged for a closer look

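*ptc* in the control libraries had 1 value far from the others. Control replicate 3 lay at 160 CPM and the other 3 controls at 41.6 to 60.3 CPM, so that its gap to the nearest of them was 0.841 of the whole range of the group. Of 9 groups of values looked at in this way, 1 was past the 95% critical value of Dixon's test, and chance alone gives about 1 in 20.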

How the results depend on the processing

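All 95 log2 fold changes of segment polarity genes over 18 alternatives were below 0. Of these, 4 passed the threshold, all under scaling by total count alone (*en* -2.40, *wg* -2.25, *ptc* -1.73, *mid* -2.46), which moved the median of all genes to -1.15 and made 97.2% of calls lower in HP1-KD, against 57.0% with TMM. The genes called in all were 688, and 1488 with DESeq2, 439 with at least 10 counts in every library, 404 among protein-coding genes and 1095 by total count. Calls among pathway, paralogue, pair-rule and stage genes were 5, and 10 with DESeq2 and 16 by total count. The *en* to *inv* difference turned to -0.079 with 5 added to each count (exact permutation p = 0.971). Leaving out 1 library at a time gave 181 to 1212 called genes (247, 231 and 181 without HP1-KD replicates 1, 2 and 3, and 983, 349, 1212 and 207 without control replicates 1, 2, 3 and 4) and 0 to 9 calls among the lists (0, 1 and 0, and 9, 2, 9 and 0 in the same order), with 0 among the segment polarity genes, and an *en* to *inv* difference of -0.45 to 0.76. The log2 fold changes then ran over -1.76 to -0.60 (*en*), -1.59 to -0.84 (*inv*), -1.46 to -0.63 (*wg*), -0.89 to -0.11 (*ptc*) and -1.90 to -0.55 (*mid*), highest without control replicate 3 except for *inv*. Calls of *ttv*, *fz*, *Apc2*, *h*, *odd* and *rho* were lost in 5 to 9 of 18 alternatives. The cause was not tested.

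With the replicate number as a block, 96 genes were called, 76.0% of them lower in HP1-KD, with 0 among the segment polarity genes (*en* -0.81, *inv* -1.27, *wg* -0.93, *ptc* -0.62, *mid* -0.83) and 0 among the lists. Control replicate 4 was the only library of its number, so the block absorbed it and the difference rested on replicates 1 to 3. Without control replicate 4 and without a block, 207 genes were called. Deviations of same-numbered libraries correlated at 0.46, -0.11 and 0.06 for replicates 1 to 3. Replicates 1 and 3 correlated best with their own number and replicate 2 did not. Whether same-numbered libraries share a collection or preparation is not given in the sources used here.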

Other observations

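The haemocyte marker *Hml*, the gene of Hemolectin, had 9, 8 and 7.5 estimated counts in HP1-KD replicates 1 to 3, against 0, 1, 0 and 1 in control replicates 1 to 4. In CPM these were 1.39, 0.735 and 1.15 in HP1-KD, against 0, 0.0528, 0 and 0.04998 in control. It failed the count filter and got no test, it was picked after its values were seen, and the other haemocyte markers *srp* and *crq* overlapped between the groups.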
